A study of Rattus norvegicus with 28 samples.

Results

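The step from day 2 to day 3 after transplantation was followed in endothelial preparations of mismatched rat heart grafts, across all 14217 genes measured. It rests on 6 of the 28 arrays of the series, chosen by their titles: 3 allografts harvested on day 3 and 3 harvested on day 2. Allografts were hearts of DA (Dark Agouti) rats grafted into the neck of Lewis recipients with a cuff technique, and all animals were male. Beside them stood isografts, which were Lewis hearts in Lewis recipients harvested on day 3 (3 arrays) and day 2 (3 arrays), normal DA hearts (3 arrays) and allografts of day 4 (3 arrays). Normal Lewis hearts (3 arrays), isografts of day 4 (3 arrays) and 4 leukocyte arrays were also used. All 24 endothelial arrays entered the fit that gave the p-values, and the leukocyte arrays did not. From minced hearts, cells carrying the leukocyte protein CD45 were removed and cells carrying CD31 were then collected on magnetic beads, so each array shows a cell preparation and not a pure cell type. CD31 is also found on lymphatic endothelium, on platelets and on part of the leukocytes. The 3 arrays of a group are described as biological replicates, without a statement on whether separate animals gave them. The p-values then measure only the spread between these samples, which may be technical.

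Endothelium is the first tissue of a graft that the recipient's lymphocytes meet. Interferon-gamma, which T cells and natural killer cells release, switches on in endothelial cells the genes of antigen presentation, chemokines that attract more lymphocytes and enzymes that degrade tryptophan. Type I interferons, which many cell types release, drive an antiviral programme that overlaps with it. Both act through Stat and Irf transcription factors, which bind interferon-stimulated response elements and gamma-activated sites in promoters. In grafted hearts, neutrophils and monocytes enter early and lymphocytes later.

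Each value below is a log2 signal, so a difference of 1 is a doubling. The label held against the markers: Pecam1, which encodes CD31, averaged 12.03 log2 on day 3, against 11.80 log2 on day 2 and 11.92 log2 in normal DA hearts. Over 21 endothelial markers the mean signal was 12.04, 11.81 and 11.77 log2 in the day 3 arrays, against 11.92, 11.70 and 11.89 log2 in the day 2 arrays. Leukocyte transcripts were present in both groups. Ptprc, which encodes CD45, averaged 8.36 log2 on day 3 and 8.25 log2 on day 2, against 5.43 log2 in normal DA hearts. In such bulk preparations, fewer cells of a type and less RNA per cell cannot be told apart.

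A single array stood apart, allograft day 2 replicate 3. Its 15 interferon-gamma-induced genes had a mean of 8.32 log2, below 9.99 and 9.80 log2 in the other day 2 arrays. Its macrophage list had a mean of 9.84 log2, against 8.77 and 8.68 log2 in those arrays, and its fibroblast list stood at 10.13 log2, against 7.47 and 7.99 log2. It also held the highest lymphatic endothelial (10.47 log2) and neutrophil (6.76 log2) means of the day 2 arrays. Many results that lean on it are therefore also given without it. Replicates correlated across genes with r = 0.972 to 0.988 on day 2 and 0.982 to 0.991 on day 3, and genes are not independent of each other. The standard error (SE) of a difference had a median of 0.165 log2.

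No gene passed in the allograft step: limma called 0 of 14217 genes at an adjusted p under 0.05 (0% higher and 0% lower on day 3). At an unadjusted p under 0.05, limma gave 676 genes, of which 291 were higher (2.05% of all genes) and 385 lower (2.71%). If no gene changed, a share of 0.05 of all genes would be expected in this range of p. The 676 genes are not above that share, so such genes are described here by their values and not as changes. All 3 day 3 arrays lay above all 3 day 2 arrays in 458 genes (3.22%) and below them in 539 genes (3.79%). The median difference over all genes was -0.02 log2, and 87 genes differed by 1 log2 or more in either direction. Without allograft day 2 replicate 3 the unadjusted range held 351 higher genes (2.47%) and 332 lower genes (2.34%), and limma called 1 gene, Art3 (0.00703%).

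Art3, a member of the ADP-ribosyltransferase family, had the smallest p of all genes. Its signals were 8.55, 8.57 and 8.37 log2 in day 3 allografts, against 6.57, 6.86 and 7.41 log2 in day 2 allografts. The groups did not overlap, and the difference was 1.55 log2 (SE 0.25, 2.92-fold, limma adjusted p = 0.0562). The replicate numbers of the labels may mark pairs of allograft arrays. With the number as a block, shared by all 24 endothelial arrays, limma's adjusted p was 0.0496 (1 gene called, 0.00703% of all). It was 0.0174 without allograft day 2 replicate 3, and it was highest, at 0.722, when only the 6 arrays compared were fitted. Normal DA hearts averaged 7.79 log2 and day 4 allografts 8.73 log2, so the day 2 allografts were the lowest group of this series of times. In isografts Art3 stood at 9.20, 9.33 and 9.14 log2 on day 3, against 9.24, 9.04 and 8.99 log2 on day 2, with overlapping groups.

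The genes with the next smallest p among the higher ones included members of several pathways. Igtp, a GTPase that acts on the vacuoles of intracellular parasites, had 11.06, 11.33 and 10.85 log2 on day 3, against 10.08, 9.80 and 8.80 log2 on day 2 (difference 1.52, SE 0.29, limma adjusted p = 0.152). Sectm1b, whose human relative SECTM1 binds the T cell protein CD7, had 7.996, 8.33 and 8.79 log2 on day 3, against 7.22, 7.23 and 6.67 log2 on day 2 (difference 1.33, SE 0.26, adjusted p = 0.152). Pfkfb3, which makes the activator of the glycolytic enzyme phosphofructokinase, had 11.61, 12.04 and 11.90 log2 on day 3, against 10.67, 10.51 and 10.33 log2 on day 2 (difference 1.34, SE 0.26, adjusted p = 0.152). Dimmer probe sets of Pfkfb3 gave 1.87 and 0.08 log2. In these genes every day 3 array lay above every day 2 array.

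P2ry14, a receptor for UDP-glucose, had 8.08, 8.11 and 7.91 log2 on day 3, against 6.36, 6.42 and 7.27 log2 on day 2 (difference 1.35, adjusted p = 0.221). Klrb1a, a receptor of natural killer cells, differed by 0.73 log2 at signals between 3.98 and 5.09 log2, near the low end of the arrays. Prxl2a and Kyat3 differed by 1.13 and 0.74 log2. Kyat3 transaminates kynurenine, the product of tryptophan breakdown. Psmb9, an immunoproteasome subunit, and RGD1309362 differed by 1.27 and 1.16 log2. The groups of these genes did not overlap, and their adjusted p lay between 0.152 and 0.326. The differences of these 10 genes lay between 0.66 log2 (Klrb1a) and 1.78 log2 (Art3) without allograft day 2 replicate 3. Allograft day 3 replicate 1 was the lowest day 3 array of both Klrb1a and Prxl2a, so leaving it out raises both differences. Prxl2a had 6.44, 7.51 and 7.67 log2 on day 3, against 5.87, 6.29 and 6.07 log2 on day 2. Without that array, limma called Klrb1a (0.91 log2, adjusted p = 0.0161) and Prxl2a (1.52 log2, adjusted p = 0.00573).

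**Figure D1:**
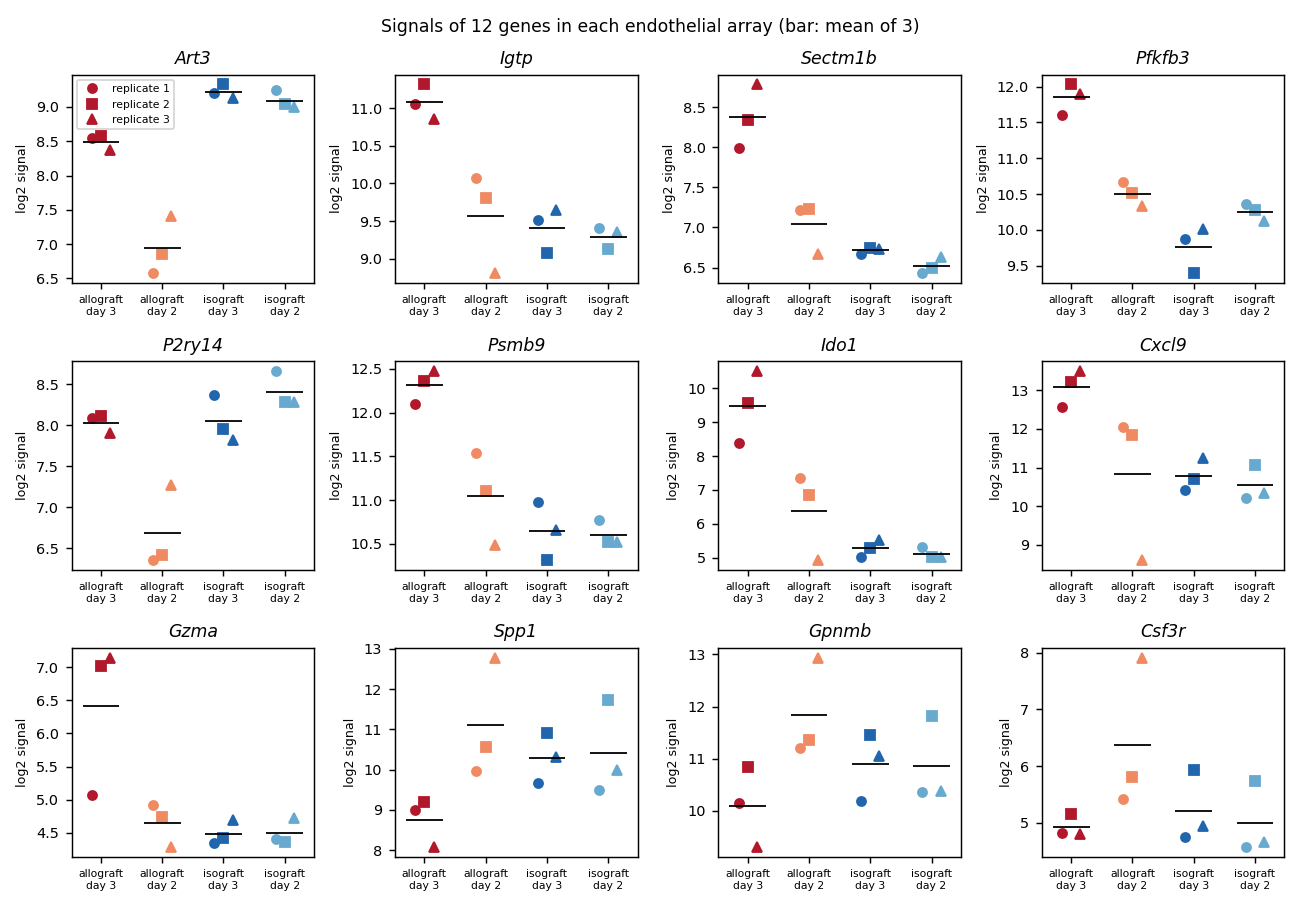
Log2 signals (y axis) of 12 genes in each array of day 3 and day 2 allografts and isografts (x axis), with 1 symbol per replicate and a bar at the mean of 3. Art3 lies at 8.37 to 8.57 log2 in day 3 allografts, above 6.57 to 7.41 log2 in day 2 allografts, while Spp1 lies at 8.08 to 9.19 log2 on day 3, below 9.97 to 12.78 log2 on day 2; scales differ between panels.

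Genes that interferon-gamma induces stood higher on day 3 as a list. Of 15 measured members, 11 were higher and 0 lower at an unadjusted p under 0.05 (2.05% and 2.71% of all genes), and their median difference was 1.50 log2 beside -0.02 log2 over all genes. All 15 differences were above 0. The list mean was 10.47, 10.97 and 11.15 log2 in day 3 allografts, against 9.99, 9.80 and 8.32 log2 in day 2 allografts. The groups were apart also without allograft day 2 replicate 3, where 8 of 15 members were higher and the median was 1.02 log2. Over time the list mean was 9.09 log2 in normal DA hearts and 9.37, 10.86 and 11.69 log2 in allografts of days 2, 3 and 4.

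Ido1, the enzyme that starts the breakdown of tryptophan, had the largest difference of all genes. It stood at 8.37, 9.57 and 10.52 log2 on day 3, against 7.34, 6.84 and 4.92 log2 on day 2 (difference 3.12, SE 0.73, 8.70-fold, limma adjusted p = 0.326). All day 3 arrays lay above all day 2 arrays, and without allograft day 2 replicate 3 the difference was 2.40 log2. Isografts of both days stayed between 5.02 and 5.51 log2.

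Guanylate-binding proteins, GTPases that attack intracellular microbes, were among the genes with large differences. Gbp4 had 8.81, 9.13 and 9.40 log2 on day 3, against 7.998, 7.23 and 5.27 log2 on day 2 (difference 2.28, SE 0.58, adjusted p = 0.347). Gbp2 had 12.26, 12.63 and 12.12 log2 on day 3, against 11.59, 11.31 and 9.76 log2 on day 2 (difference 1.45, SE 0.35). The groups of both did not overlap, and the differences were 1.50 and 0.89 log2 without allograft day 2 replicate 3. Members of this family are alike in sequence, and a probe set may read more than 1 of them. Wars1, a tRNA synthetase, the ubiquitin-like modifier Ubd and the transcription factor Batf2 differed by 1.34, 2.10 and 1.50 log2. Irf8 and Socs1, a transcription factor and an inhibitor of interferon signalling, differed by 0.76 and 0.69 log2 with an unadjusted p above 0.05. Irf1, an early target of interferon-gamma, differed by 0.19 log2, with 12.84, 13.18 and 13.51 log2 on day 3, against 13.03, 13.25 and 12.69 log2 on day 2.

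The ligands of the chemokine receptor Cxcr3, which guide activated T cells, belonged to this list. Cxcl9 had 12.56, 13.21 and 13.50 log2 on day 3, against 12.04, 11.85 and 8.60 log2 on day 2 (difference 2.26, SE 0.66, adjusted p = 0.520). Cxcl10 had 10.92, 12.01 and 11.66 log2 on day 3, against 10.47, 10.29 and 8.12 log2 on day 2 (difference 1.91, SE 0.69). Their groups did not overlap, and without allograft day 2 replicate 3 the differences were 1.15 and 1.16 log2. Cxcl11 had overlapping groups, with 11.47 log2 in day 3 replicate 1 and 11.58 log2 in day 2 replicate 1, and its difference of 2.09 log2 was 0.87 log2 without allograft day 2 replicate 3.

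The sequences before the starts of these genes were searched for the core of the interferon-stimulated response element, which was GAAA and GAAA with any 2 bases between them, or TTTC and TTTC with any 2 bases between them as read on the other strand. They were also searched for the gamma-activated site, TTC and GAA with any 3 bases between them, which reads alike on both strands. The motifs can share bases. The RefSeq promoter table of the GRCr8 build was used, with 250 bases before the first start listed for each gene. The response element core was found in 902 of 27457 promoters (3.285%) and in 311 of the 11733 promoters of measured genes (2.651%). It was found in 7 of 14 promoters of the interferon-gamma list, in 14 of 26 of the type I interferon list and in 8 of 16 of the class I list. Among all genes with an unadjusted p under 0.05, it was in 42 of 241 promoters (17.427%) of those higher on day 3 and in 5 of 324 (1.543%) of those lower. The gamma-activated site, a shorter motif, was in 7.524% of all promoters and in 6.128% of those of measured genes. It was in 6 of 14 promoters (42.857%) of the interferon-gamma list, in 6 of 26 (23.077%) of the type I list, in 2 of 16 (12.5%) of the class I list and in 6 of 21 (28.571%) of the Jak, Stat, Irf and Socs transducers. Among genes with an unadjusted p under 0.05 it was in 9.129% of the promoters of those higher on day 3 and in 5.864% of those lower. A match is a description of letters and was not tested as a binding site.

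The following 160 bases before the start are shown because their genes carry the response element core and come from the 3 lists that stood highest. They run 5′ to 3′ on the strand of the gene, and the capitals mark the core.
Igtp, chr10:42874887-42875046, plus strand: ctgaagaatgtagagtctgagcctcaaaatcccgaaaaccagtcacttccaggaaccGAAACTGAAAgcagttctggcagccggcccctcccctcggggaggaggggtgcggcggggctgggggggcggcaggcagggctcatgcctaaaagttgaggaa
Gbp2, chr2:234005567-234005726, plus strand: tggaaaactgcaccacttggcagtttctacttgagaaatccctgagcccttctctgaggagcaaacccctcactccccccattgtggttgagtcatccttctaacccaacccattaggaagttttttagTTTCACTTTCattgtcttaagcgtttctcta
Gbp4, chr2:233978326-233978485, plus strand: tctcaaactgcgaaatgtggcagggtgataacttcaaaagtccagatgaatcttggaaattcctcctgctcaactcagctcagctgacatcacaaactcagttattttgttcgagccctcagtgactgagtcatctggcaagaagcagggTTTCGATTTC
Psmb10, chr19:50743293-50743452, minus strand: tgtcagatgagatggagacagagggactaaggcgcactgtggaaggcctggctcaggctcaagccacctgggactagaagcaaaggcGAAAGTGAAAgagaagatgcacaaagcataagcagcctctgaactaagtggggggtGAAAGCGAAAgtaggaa
Tap1, chr20:4668544-4668703, minus strand: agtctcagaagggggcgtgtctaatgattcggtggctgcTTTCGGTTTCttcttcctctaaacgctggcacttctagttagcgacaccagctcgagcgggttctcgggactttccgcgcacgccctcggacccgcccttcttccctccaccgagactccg
Isg20, chr1:142239899-142240058, plus strand: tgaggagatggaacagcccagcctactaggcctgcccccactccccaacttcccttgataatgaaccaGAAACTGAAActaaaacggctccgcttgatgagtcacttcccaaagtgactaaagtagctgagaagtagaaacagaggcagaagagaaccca
Rsad2, chr6:48788121-48788280, minus strand: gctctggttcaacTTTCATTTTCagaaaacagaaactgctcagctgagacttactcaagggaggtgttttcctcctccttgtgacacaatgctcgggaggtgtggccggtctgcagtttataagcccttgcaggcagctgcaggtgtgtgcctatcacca
Ifit3, chr1:241527166-241527325, plus strand: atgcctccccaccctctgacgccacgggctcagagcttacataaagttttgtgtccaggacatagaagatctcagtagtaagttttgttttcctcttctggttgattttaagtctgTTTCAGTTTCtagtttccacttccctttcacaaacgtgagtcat

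In these sequences the first base of the core lay 103 bases before the start of Igtp, 31 before Gbp2 and 10 before Gbp4. In Igtp a gamma-activated site began 114 bases before the start, without overlap with the core. Psmb10 held the core at 73 and at 17 bases before its start, and Tap1 at 121 bases. The antiviral genes held it at 92 bases (Isg20), 147 bases (Rsad2) and 44 bases (Ifit3).

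Presentation of antigen by MHC class I needs an immunoproteasome that cuts proteins, the Tap transporter that moves the peptides, and the class I chains that show them to killer T cells. Of 19 measured genes of this machinery, 13 were higher and 0 lower at an unadjusted p under 0.05, with a median difference of 0.57 log2. In 13 of the 19 all day 3 arrays lay above all day 2 arrays (3.22% of all genes). Psmb9 had 12.09, 12.36 and 12.48 log2 on day 3, against 11.54, 11.11 and 10.48 log2 on day 2. The other immunoproteasome subunits Psmb8 and Psmb10 differed by 1.09 and 0.83 log2, and the regulator of class I genes Nlrc5 by 1.23 log2. Tap1 had 11.28, 11.25 and 11.50 log2 on day 3, against 10.69, 10.64 and 9.77 log2 on day 2 (difference 0.98, SE 0.27, adjusted p = 0.412). Its partner Tap2 had overlapping groups and differed by 0.61 log2 (SE 0.48).

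Among the chains, RT1-CE5 had the largest difference, with 10.24, 10.06 and 10.42 log2 on day 3, against 9.04, 8.32 and 7.23 log2 on day 2 (difference 2.04, SE 0.61). It was 1.56 log2 without allograft day 2 replicate 3. A second probe set of RT1-CE5, at a like mean signal, gave only 0.83 log2, and dimmer ones gave 1.82, 1.35 and 0.20 log2. RT1 class I genes are close copies of each other and differ between DA and Lewis rats. Which copies and whose cells these probe sets read therefore cannot be told apart. The shared light chain B2m differed by 0.24 log2, and the general chaperones Canx, Calr and Pdia3 by 0.02, -0.17 and 0.13 log2. Leaving out allograft day 2 replicate 3 gave 9 of 19 higher and a median of 0.39 log2. The list mean was 10.65 log2 in normal DA hearts and 10.35, 11.02 and 11.37 log2 on days 2, 3 and 4. MHC class II genes, which show antigen to helper T cells, had overlapping groups in all 8 measured members, with a median of 0.36 log2 and 0 members in the unadjusted range.

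Type I interferon-induced genes had another course. Their mean was 10.13 log2 in normal DA hearts and 9.24, 9.999 and 10.21 log2 in allografts of days 2, 3 and 4, so that day 3 lay near the level of normal DA hearts and day 2 below it. Of 35 measured members, 25 were higher on day 3 and 0 lower at an unadjusted p under 0.05, and the median difference was 0.75 log2. Only 10 were higher without allograft day 2 replicate 3, with a median of 0.51 log2. The array means were 10.07, 9.87 and 10.06 log2 on day 3, against 9.69, 9.33 and 8.69 log2 on day 2.

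Rsad2, which makes an antiviral nucleotide, had 12.17, 12.25 and 11.21 log2 on day 3, against 11.07, 10.58 and 10.33 log2 on day 2 (difference 1.22, SE 0.28, limma adjusted p = 0.326). Its day 3 mean lay near its 11.69 log2 in normal DA hearts. Ifit1 and Ifit3, which bind foreign RNA, differed by 0.99 and 1.26 log2, and the exonuclease Isg20 by 1.14 log2, all without overlap. Mx1 and Mx2, GTPases that trap viruses, differed by 1.70 and 1.43 log2 with overlapping groups. Irf9 and Irf7, transcription factors that carry the type I signal, differed by 0.74 log2 without overlap and by 1.28 log2 with overlap. Leaving out allograft day 2 replicate 3 gave 0.98 log2 for Mx1, 0.73 log2 for Mx2, 0.71 log2 for Irf7 and 0.57 log2 for Ifit1. At the other end, Oas1a, Oas1b and Tor3a differed by -0.27, -0.05 and -0.05 log2. Beyond these targets, the Jak, Stat, Irf and Socs transducers had a median of 0.16 log2, with 4 of 27 members higher and 0 lower, and 2 higher without allograft day 2 replicate 3.

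**Figure D2:**
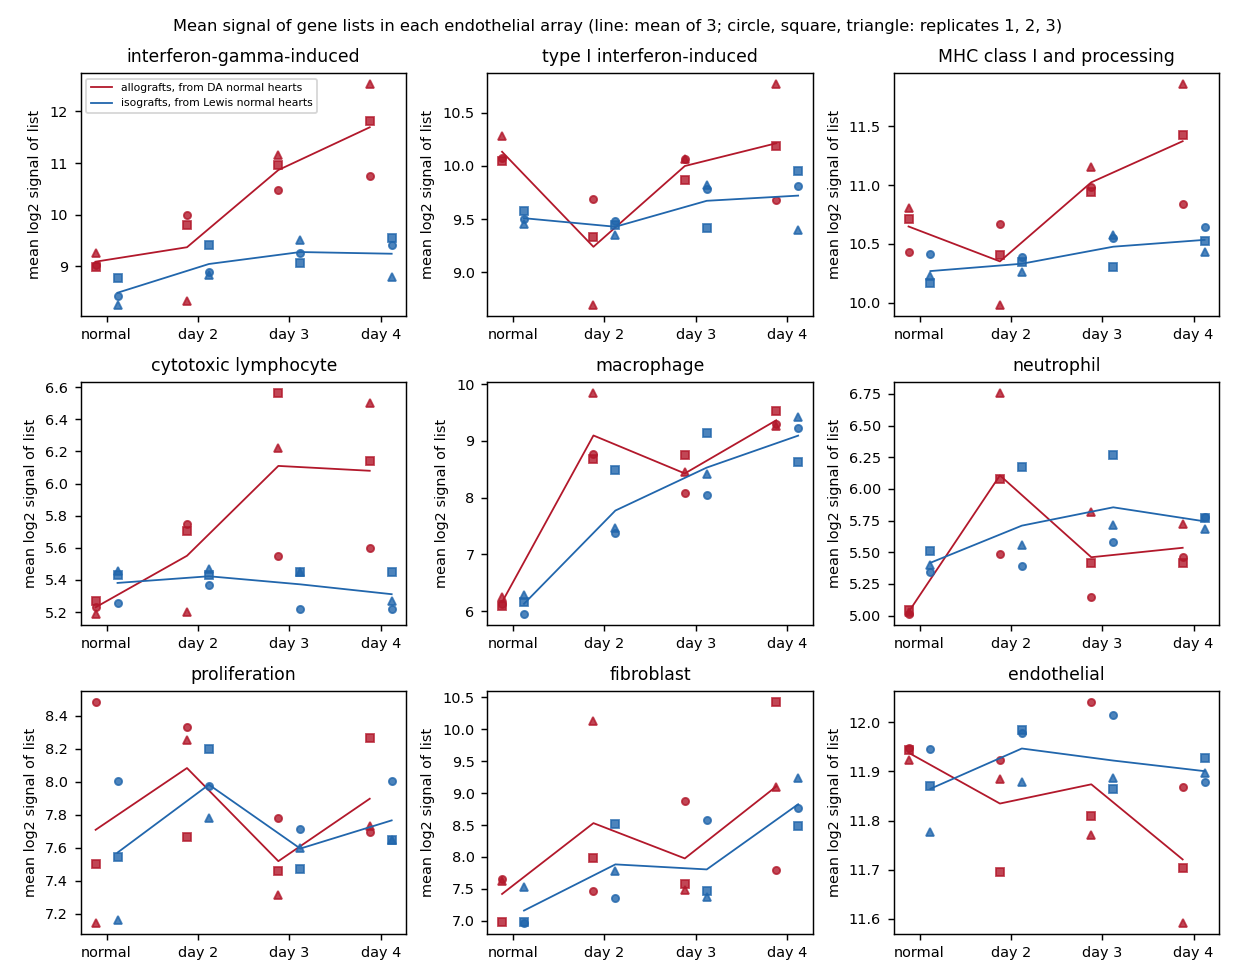
Mean log2 signal (y axis) of 9 gene lists in each endothelial array by time (x axis), for allografts from normal DA hearts and for isografts from normal Lewis hearts, with symbols for replicates and lines through the means of 3. The interferon-gamma list has means of 9.09 log2 in normal DA hearts and 9.37, 10.86 and 11.69 log2 on days 2, 3 and 4, and allograft day 2 replicate 3 (triangle) lies lowest in it at 8.32 log2 and highest for macrophages at 9.84 log2.

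Several genes with high values were direct neighbours in the gene order of GRCr8, which was seen only after their values. On chromosome 14 the order is Nup54, Art3, Cxcl11, Cxcl10, Cxcl9 and Sdad1. The differences were 1.55, 2.09, 1.91 and 2.26 log2 for the inner 4 genes, against 0.25 log2 (SE 0.14) for Nup54 and -0.05 log2 (SE 0.16) for Sdad1. On chromosome 2, Gbp7, Gbp4 and Gbp2 follow each other with 1.87, 2.28 and 1.45 log2, and Kyat3 lies 4 genes beyond Gbp2. On chromosome 10, Igtp and Irgm2 are neighbours with 1.52 and 1.28 log2, and on chromosome 18 the differences of RGD1309362 and Ifgga2l1 were 1.16 and 1.34 log2. On chromosome 20, Psmb8, Tap1 and Psmb9 had 1.09, 0.98 and 1.27 log2, beside RT1-DMb at -0.18 log2 on the far side of Psmb9. This group had no clear edge on the side of Psmb8, where Tap2 had 0.61 log2 (SE 0.48) and RT1-Bb 0.60 log2 (SE 0.52). Brd2, beyond RT1-DMb, had 0.34 log2 (SE 0.30). Among the other measured genes within 5 genes of Art3 or Igtp, the difference furthest from 0 was that of Scarb2, at -0.31 log2.

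**Figure D3:**
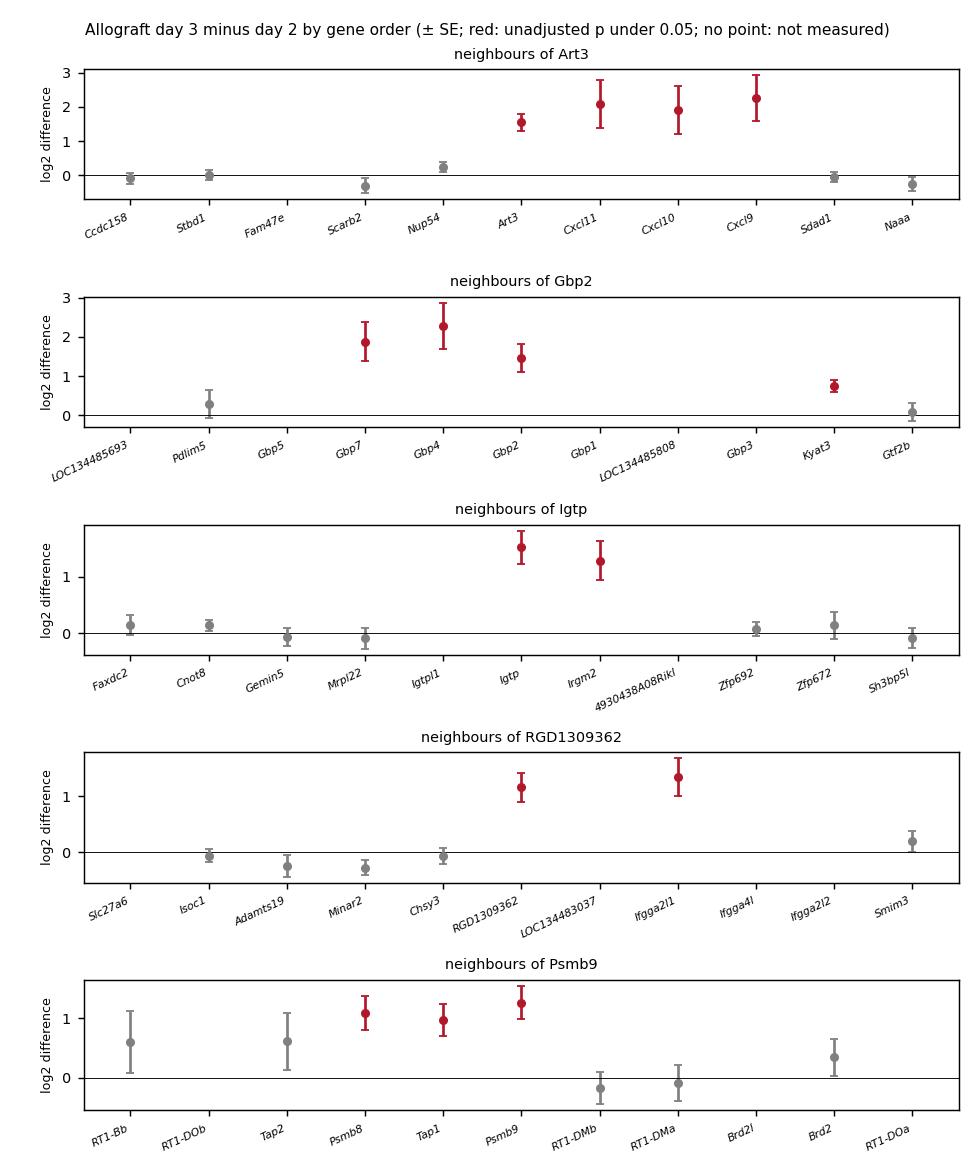
Difference of allograft day 3 minus day 2 in log2 (y axis, with SE bars) for genes in chromosomal order (x axis) around Art3, Gbp2, Igtp, RGD1309362 and Psmb9; red marks an unadjusted p under 0.05 and genes without a point were not measured. Art3, Cxcl11, Cxcl10 and Cxcl9 lie at 1.55 to 2.26 log2 between Nup54 at 0.25 log2 and Sdad1 at -0.05 log2.

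Transcripts of cytotoxic lymphocytes, which kill with granzymes and perforin, were higher in part. Of 19 measured members 9 were higher and 0 lower at an unadjusted p under 0.05, with a median of 0.52 log2. Many of these signals were low. Only 11 members reached 6 log2 in at least 3 endothelial arrays, and 7 of them were higher in a fit of such genes. Gzma, a granzyme, had 5.07, 7.02 and 7.14 log2 on day 3, against 4.92, 4.73 and 4.29 log2 on day 2 (difference 1.76, SE 0.51, adjusted p = 0.492). Its day 2 signals lay below the lower quartiles of those arrays (5.05, 5.23 and 4.97 log2). Ccl5, a T cell chemokine that these lymphocytes also make, had 8.23, 10.86 and 9.46 log2 on day 3, against 8.63, 7.72 and 7.37 log2 on day 2 (difference 1.61, SE 0.46). Gzmb and Gzmk differed by 1.42 and 0.85 log2, and perforin (Prf1) by 0.64 log2, all with overlapping groups. In each of them allograft day 3 replicate 1 was the lowest of the day 3 arrays. The list mean was 5.55, 6.56 and 6.22 log2 on day 3, against 5.75, 5.70 and 5.20 log2 on day 2. The count was 4 of 19 without allograft day 2 replicate 3, with a median of 0.29 log2, and 4 of 19 without allograft day 3 replicate 2, with a median of 0.20 log2. Prf1 differed by 0.34 log2 without allograft day 2 replicate 3. Ifng, which encodes interferon-gamma, differed by 0.40 log2 with overlapping groups, and by -0.01 log2 without allograft day 3 replicate 2.

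General T cell markers differed little between the days. Of 22 measured members 0 were in the unadjusted range, and the median was 0.23 log2. Their mean was 6.14 to 7.05 log2 on day 3, against 6.24 to 6.60 log2 on day 2, and the T cell receptor chain Cd3e averaged 7.83 log2 on day 3 and 7.34 log2 on day 2. Among 10 B cell markers 3 were higher, at low signals, with Ms4a1 at 5.67, 6.45 and 5.67 log2 on day 3, against 5.33, 5.51 and 4.80 log2 on day 2. That count was 0 of 10 without allograft day 2 replicate 3.

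Macrophage transcripts stood lower on day 3. Of 22 measured macrophage markers, 8 were lower and 0 higher at an unadjusted p under 0.05, and the median was -0.63 log2. Spp1, which encodes the secreted glycoprotein osteopontin, had 8.997, 9.19 and 8.08 log2 on day 3, against 9.97, 10.56 and 12.78 log2 on day 2 (difference -2.35, SE 0.62, limma adjusted p = 0.347; -1.51 log2 without allograft day 2 replicate 3). Gpnmb, a glycoprotein of phagocytes that have taken up debris, had 10.14, 10.84 and 9.31 log2 on day 3, against 11.21, 11.36 and 12.93 log2 on day 2 (difference -1.74, SE 0.48, adjusted p = 0.412; -1.19 log2 without that array). Cd14, a receptor for bacterial lipopolysaccharide, had 9.01, 9.70 and 9.72 log2 on day 3, against 10.39, 10.08 and 10.79 log2 on day 2 (difference -0.95, SE 0.34; -0.76 log2 without that array). In these genes all day 3 arrays lay below all day 2 arrays.

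The chains of complement C1q, which macrophages make, did not share this direction: C1qa, C1qb and C1qc differed by 0.42, 0.06 and 0.12 log2. The macrophage counts hung on single arrays. They were 2 lower and 2 higher of 22 without allograft day 2 replicate 3, with a median of -0.36 log2, and 3 lower without allograft day 3 replicate 1. The list mean was 8.08, 8.74 and 8.46 log2 on day 3, against 8.77, 8.68 and 9.84 log2 on day 2. Over time it was 6.16 log2 in normal DA hearts and 9.10, 8.43 and 9.36 log2 on days 2, 3 and 4.

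Neutrophil markers were lower in 11 of 12 measured members, while over all genes 6310 of 14217 were higher. Most of these markers had low signals: only 4 of the 12 reached 6 log2 in at least 3 endothelial arrays. The list mean was 5.03 log2 in normal DA hearts. Csf3r, the receptor that keeps neutrophils alive, had 4.82, 5.16 and 4.80 log2 on day 3, against 5.42, 5.80 and 7.91 log2 on day 2 (difference -1.45, SE 0.45, adjusted p = 0.656). S100a9 and S100a8, the subunits of calprotectin, differed by -2.14 and -1.91 log2 with overlapping groups, and allograft day 2 replicate 3 held 10.77 and 10.34 log2 of them. Leaving that array out gave differences of -0.68 log2 for Csf3r, -1.06 log2 for S100a9 and -0.77 log2 for S100a8. At an unadjusted p under 0.05, 5 of the 12 were lower and 0 higher. The count was 1 without allograft day 2 replicate 3, 1 without allograft day 3 replicate 1 and 2 without allograft day 3 replicate 2. Cxcl3, a neutrophil chemokine, had 7.33, 7.77 and 7.83 log2 on day 3, against 8.05, 8.29 and 8.98 log2 on day 2 (difference -0.80, SE 0.23; -0.53 log2 without allograft day 2 replicate 3). Cxcl2, another one, differed by -1.28 log2 with overlapping groups. C5ar1, the receptor through which complement calls phagocytes, differed by -1.06 log2 without overlap, and by -0.67 log2 without allograft day 2 replicate 3.

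Genes lower on day 3 were more often leukocyte-rich than genes higher on day 3. A gene was counted as leukocyte-rich where the 4 leukocyte arrays of the series lay at least 2-fold above the 6 arrays of normal hearts without overlap, after a median offset of 0.32 log2 was removed. The leukocyte arrays had been normalized apart from the rest, which limits this comparison. Of all genes 10.9% were leukocyte-rich, beside 35.1% of the 385 lower genes (135 genes) and 15.1% of the 291 higher genes (44 genes). These shares were not computed without allograft day 2 replicate 3. Its 16 pan-leukocyte genes had a mean of 9.12 log2, against 8.57 and 8.57 log2 in the other day 2 arrays. All 22 macrophage markers and 18 of 19 cytotoxic markers were leukocyte-rich, against 1 of 35 type I interferon-induced genes and 6 of 15 interferon-gamma-induced genes. With the mean of 16 pan-leukocyte genes as a covariate, 10 macrophage markers were lower and 10 cytotoxic markers higher at an unadjusted p under 0.05. Over all 14217 genes and both directions, 636 were in that range with the covariate.

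Part of the cell cycle genes stood lower on day 3 in allografts. Of 39 measured members 9 were lower and 0 higher in allografts, with a median of -0.61 log2, and in 11 of them all day 3 arrays lay below all day 2 arrays (3.79% of all genes). Kif20a, a motor needed to part daughter cells, had 7.59, 7.20 and 6.81 log2 on day 3, against 8.21, 7.94 and 8.44 log2 on day 2 (difference -0.99, SE 0.34, adjusted p = 0.819). Cyclin E1 (Ccne1), which opens DNA replication, had 6.40, 6.28 and 6.23 log2 on day 3, against 6.76, 7.12 and 7.07 log2 on day 2 (difference -0.68, SE 0.18, adjusted p = 0.347). Mki67, the classical mark of dividing cells, differed by -0.99 log2 with overlapping groups. In isografts the list median was -0.43 log2, with 0 of 39 in the unadjusted range, and Mki67 differed by -0.89 log2.

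The count of lower cell cycle genes depended strongly on the fit. It was 17 with the replicate block (3.07% of all genes lower and 2.65% higher at an unadjusted p under 0.05) and 22 with only the 6 arrays compared. Leaving out single arrays gave 30 without allograft day 2 replicate 2, 18 without allograft day 3 replicate 1, and 4 without allograft day 2 replicate 3 or allograft day 3 replicate 3. The whole unadjusted range moved too. Of 14217 genes it held 676 in the main fit, both directions together, and 434 with only the 6 arrays. It held 1022, 746, 683 and 659 genes in the order of the arrays left out above. Beyond the list, Pkmyt1, the kinase that holds Cdk1 inactive, was among the 10 lower genes with the smallest p, with 6.40, 6.49 and 6.55 log2 on day 3, against 6.85, 6.94 and 7.08 log2 on day 2 (difference -0.48, adjusted p = 0.347). The others of these 10 were Plekhg3 at -0.75 log2, the iron reductase Steap3 at -0.73 log2, Ydjc at -0.49 log2, the tetraspanin Tspan17 at -0.42 log2, Lect2 at -0.51 log2 and Rtn4ip1 at -0.38 log2, with Ccne1, Spp1 and Gpnmb given above. In each of the 10 the groups did not overlap, and the adjusted p lay between 0.221 and 0.412. Without allograft day 2 replicate 3 the differences of the 8 other than Spp1 and Gpnmb lay between -0.71 log2 (Plekhg3) and -0.29 log2 (Tspan17). A second probe set of Lect2, at a like mean signal, gave only -0.07 log2. Dimmer second probe sets gave 0.07 log2 for Ydjc, -0.01 log2 for Rtn4ip1 and -0.23 log2 for Tspan17.

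Lymphatic endothelium, fibroblasts and matrix had lower medians that came with 1 array. The 7 lymphatic markers had a median of -1.02 log2. Of these, Pdpn (podoplanin) differed by -1.25 log2, with 8.69, 9.21 and 9.14 log2 on day 3, against 9.82, 10.05 and 10.92 log2 on day 2. Its difference was -0.92 log2 without allograft day 2 replicate 3. Pdpn is not confined to lymphatic cells here: it had 11.61, 10.61, 10.30 and 10.75 log2 in the 4 leukocyte arrays, which had been normalized apart. Which cells gave its difference was not tested. Prox1, the transcription factor that defines this lineage, differed by -0.24 log2. The lymphatic median was -0.22 log2 without allograft day 2 replicate 3, and the count of lower members was 0 in place of 2. The 15 fibroblast markers had a median of -0.58 log2, and of 0.13 log2 without that array. Its collagen chain Col1a1 stood at 12.67 log2 there, against 8.41 and 9.10 log2 in the other day 2 arrays, and allograft day 3 replicate 1 held 11.19 log2, against 8.25 and 7.97 log2. The 30 extracellular matrix genes had a median of -0.45 log2, and of -0.07 log2 without that array.

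The remaining lists held few members in the unadjusted range. Of 21 endothelial markers 1 was higher and 1 lower, with a median of 0.04 log2. They were Kdr, the main receptor for Vegf (0.38 log2, and 0.17 log2 without allograft day 2 replicate 3), and Vwf, which tethers platelets (-0.50 log2). Vwf had 11.996, 11.58 and 11.57 log2 on day 3, against 12.05, 12.08 and 12.53 log2 on day 2. Of 16 leukocyte adhesion genes 1 was lower, Madcam1, the vascular address for gut-homing lymphocytes, with 5.22, 5.45 and 5.44 log2 on day 3, against 5.86, 5.84 and 6.10 log2 on day 2 (difference -0.56, SE 0.16). E-selectin (Sele) and P-selectin (Selp), which slow rolling leukocytes, differed by -0.54 and -0.74 log2 with an unadjusted p above 0.05.

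Genes of other vessel functions had medians near 0. Angiogenesis and Notch genes had 4 higher and 2 lower of 27 (2.05% and 2.71% of all genes), among them Cxcr4 at 0.74 log2 and Hey2 at 0.53 log2. Genes of BMP and TGF-beta signalling had 1 higher, Id3 at 0.47 log2, and 1 lower, Fst at -0.58 log2, of 26. Cardiac capillary lipid uptake genes had 1 lower of 13, Slc27a3 at -0.28 log2, and vascular tone genes 1 lower of 20, Ddah1 at -0.91 log2. A second probe set of Slc27a3, at a like mean signal, gave -0.12 log2. Coagulation and fibrinolysis genes had 1 lower of 16, which was Vwf. Hypoxia and glycolysis genes had 2 higher, Pfkfb3 and Egln3 (0.97 log2), and 1 lower of 24. Leaving out allograft day 2 replicate 3 gave 0 of 27 angiogenesis and Notch genes in the unadjusted range, 0 lower BMP and TGF-beta genes, 0 coagulation genes, 0 lower hypoxia genes and 1 higher with 0 lower vascular tone genes. Fst then differed by -0.17 log2 and Ddah1 by -0.52 log2. No list named in this paragraph had a median above 0.06 or below -0.23 log2.

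Immune and stress lists had mixed members. Of 29 chemokines 6 were higher and 2 lower, and the higher ones were Cxcl9, Cxcl10, Cxcl11, Ccl5, Cx3cl1 and Ccl19. Complement genes had 2 higher, C1s at 1.10 log2 and its inhibitor Serping1 at 0.71 log2, and 1 lower, C5ar1, of 15. Cell death genes had 3 higher of 23, led by the death ligand Tnfsf10, with 11.65, 11.70 and 11.17 log2 on day 3, against 10.77, 10.99 and 9.91 log2 on day 2 (difference 0.95, SE 0.30; 0.62 log2 without allograft day 2 replicate 3). Without allograft day 2 replicate 3 the counts were 2 higher and 1 lower for chemokines, 5 higher and 1 lower for complement and 1 higher for cell death. T cell costimulation and checkpoint genes had 1 higher and 2 lower of 14, with Tnfsf9 at -0.69 log2. Of the 24 NF-kB inflammatory genes, the 23 immediate early genes, the 44 respiratory chain genes, the 8 dendritic cell, 7 platelet and 5 erythroid markers, 0 were in the unadjusted range. Il1b and Il6 differed by -1.26 and -0.81 log2 with overlapping groups. Of 22 oxidative and heat stress genes 1 was higher, of 16 pan-leukocyte genes 1 was lower, Vav1 at -0.55 log2, and of 12 mural cell genes 1 was lower, Acta2. Leaving out allograft day 2 replicate 3 gave 4 higher and 0 lower mural cell genes, 0 pan-leukocyte genes, 1 lower NF-kB gene and 1 higher respiratory chain gene in the unadjusted range. Of 21 cardiomyocyte genes 1 was higher, Myh7, with 5.90, 5.41 and 4.69 log2 on day 3, against 4.44, 4.45 and 4.28 log2 on day 2. These day 2 signals lay near the low end of the arrays, and a dimmer probe set of Myh7 gave only 0.09 log2.

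**Figure D4:**
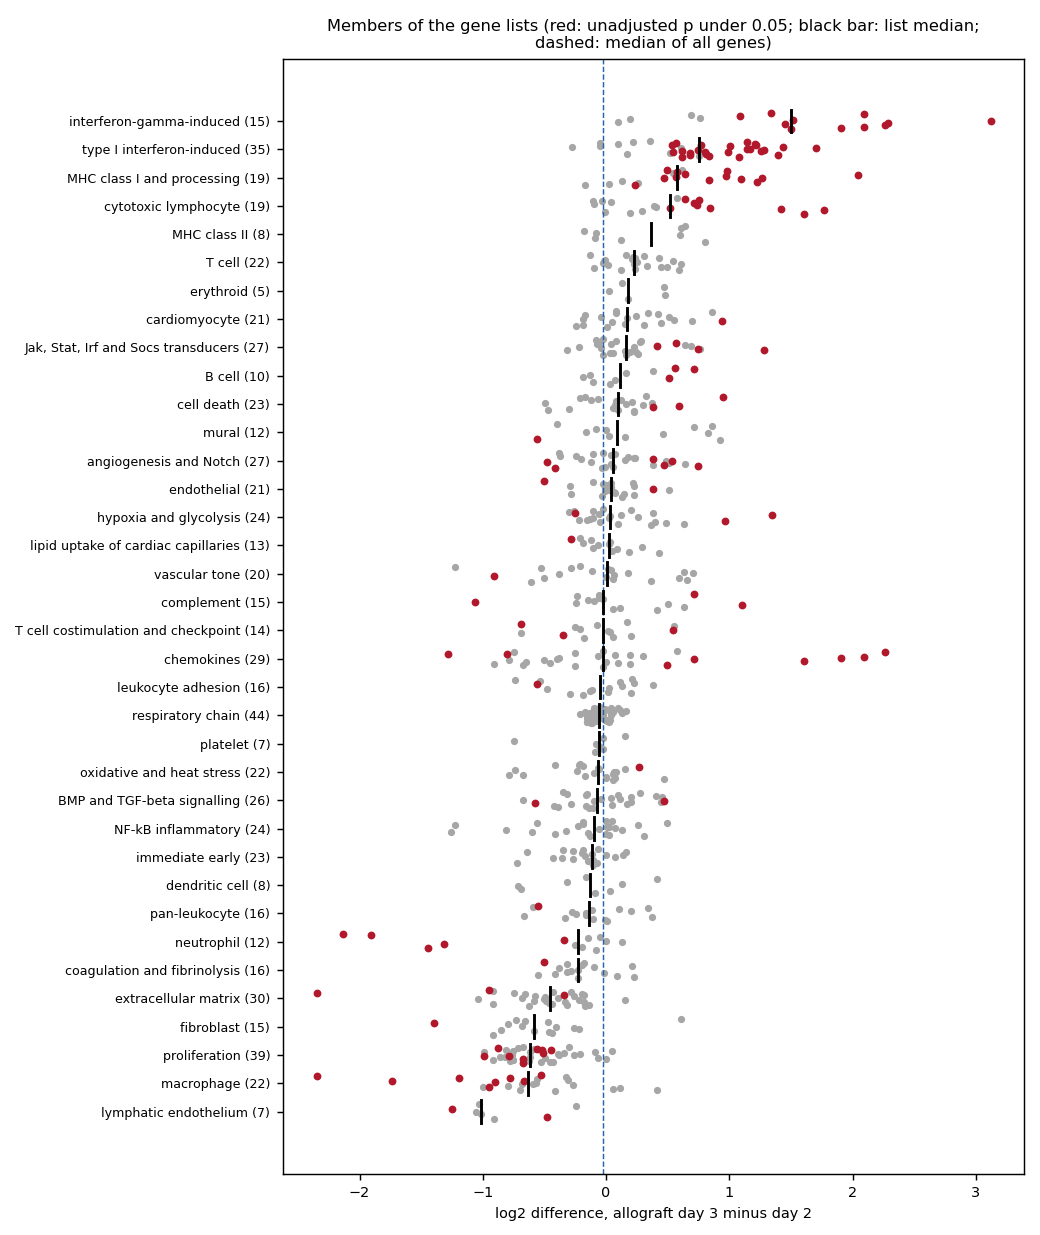
Difference of allograft day 3 minus day 2 in log2 (x axis) for each measured member of 36 gene lists (rows, number of members in brackets), with red points for an unadjusted p under 0.05, a black bar at the list median and a dashed line at the median of all genes, -0.02 log2. The interferon-gamma list lies furthest right with a median of 1.50 log2, and lymphatic endothelium furthest left with a median of -1.02 log2.

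The same step was then taken in isografts. Allograft hearts came from DA rats and isograft hearts from Lewis rats, so the strain of the heart and the mismatch cannot be told apart in this comparison, and Art3 for one averaged 7.79 log2 in normal DA and 8.87 log2 in normal Lewis hearts. limma called 0 genes in the isograft step, with 108 higher (0.76%) and 128 lower (0.9%) of 14217 at an unadjusted p under 0.05. It also called 0 genes in the test of the difference between both steps, with 183 genes above (1.29%) and 233 below (1.64%) at an unadjusted p under 0.05. Art3, Igtp, Sectm1b, Pfkfb3 and P2ry14 had isograft differences of 0.13, 0.12, 0.20, -0.50 and -0.36 log2. Pfkfb3 had the smallest p of the difference test, with an allograft step 1.84 log2 above the isograft step (95% interval 1.06 to 2.62, limma adjusted p = 1.000). P2ry14 and Art3 followed with 1.71 log2 (0.87 to 2.55) and 1.41 log2 (0.69 to 2.14).

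Of the 15 interferon-gamma-induced genes 9 had an allograft step above the isograft step at an unadjusted p under 0.05 and 0 below, with a median of 1.36 log2. The count was 4 of 15 and the median 0.84 log2 without allograft day 2 replicate 3 (1.58% of all genes above and 1.65% below). Ido1 differed between the steps by 2.96 log2 (interval 0.81 to 5.12) and Gbp2 by 1.44 log2 (0.40 to 2.49). Class I genes had 4 of 19 above and 0 below, and cytotoxic genes also 4 of 19 above and 0 below. Leaving out allograft day 2 replicate 3 gave 1 class I gene above, with a median of 0.29 log2 in place of 0.40 log2, and 3 cytotoxic genes above, with a median of 0.32 log2 in place of 0.55 log2. Among the cytotoxic genes, Ccl5 differed by 2.01 log2 (0.65 to 3.38) and Gzmk by 1.16 log2 (0.51 to 1.80). Type I interferon-induced genes had 3 of 35 above, with a median of 0.59 log2, and 0 of 35 without allograft day 2 replicate 3. Mx1, for example, differed by 1.70 log2 in allografts and by 0.95 log2 in isografts, and the interval of the difference ran from -0.86 to 2.37 log2.

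Macrophage transcripts had opposite signs in the 2 graft types. In isografts 13 of the 22 markers were higher on day 3 and 0 lower at an unadjusted p under 0.05 (0.76% and 0.9% of all genes). Their median was 0.83 log2 beside 0.00 log2 over all genes, while in allografts the median was -0.63 log2. Of the 22 markers 17 had an allograft step below the isograft step at an unadjusted p under 0.05 and 0 above, with a median of -1.50 log2. The count was 10 of 22 without allograft day 2 replicate 3, with a median of -1.08 log2. Cd14 stood at 9.60, 10.96 and 9.85 log2 in day 3 isografts, against 8.73, 10.08 and 8.93 log2 in day 2 isografts, and its steps differed by -1.84 log2 (interval -2.85 to -0.83). The isograft list mean was 7.77 log2 on day 2 and 8.53 log2 on day 3, below and near the allograft means of 9.10 and 8.43 log2 of the same days. By array it overlapped, with 8.04, 9.14 and 8.41 log2 on day 3, against 7.37, 8.48 and 7.46 log2 on day 2. List counts were not computed without single isograft arrays. Over all genes, leaving out isograft day 3 replicate 2 gave 108 in the unadjusted range in place of 236 for the isograft step. For the difference of steps it gave 217 in place of 416.

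Fcgr2b, an inhibitory antibody receptor of myeloid and B cells, had the largest difference of this kind. It had 7.31, 9.48 and 6.69 log2 in day 3 isografts, against 4.87, 6.78 and 4.67 log2 in day 2 isografts, while the allograft arrays of both days lay between 6.50 and 8.60 log2. Its allograft step minus its isograft step was -3.14 log2 (interval -4.82 to -1.46). Emilin2, an extracellular glycoprotein, and Cxcl3 had steps that differed by -0.90 log2 (-1.36 to -0.44) and -1.26 log2 (-1.95 to -0.57). For cell cycle genes 0 of 39 steps differed at an unadjusted p under 0.05, with a median of -0.19 log2, and for Mki67 the interval ran from -1.62 to 1.42 log2. Madcam1 was lower in both graft types, by -0.56 log2 in allografts and -0.73 log2 in isografts, and the interval of the difference ran from -0.30 to 0.64 log2.

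**Figure D5:**
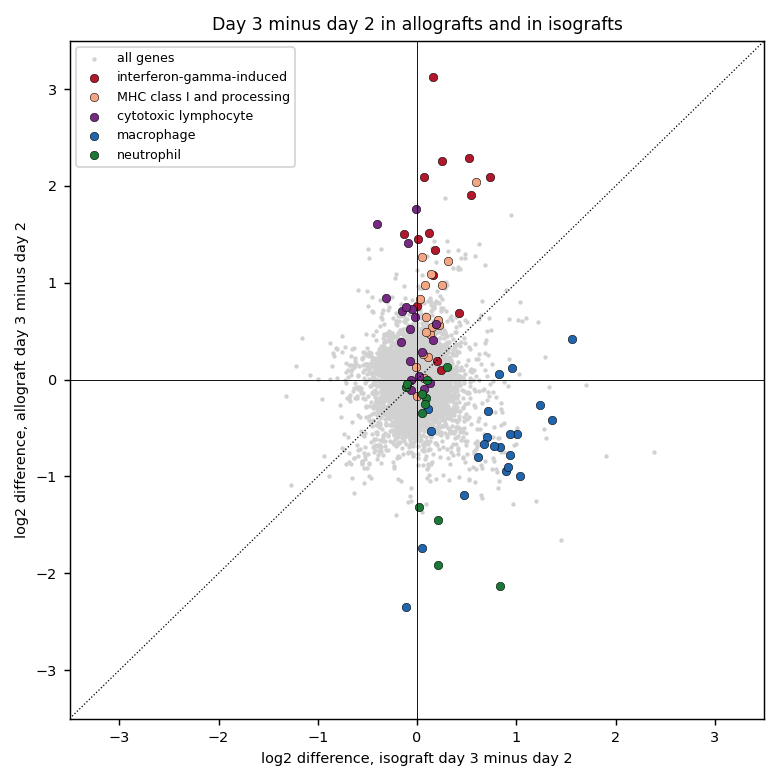
Difference of day 3 minus day 2 in log2 in isografts (x axis) and in allografts (y axis) for all genes (grey) and for members of 5 gene lists, with a dotted line where both differences are equal. Interferon-gamma-induced genes lie above 0 on the allograft axis, with a median of 1.50 log2, against a median of 0.18 log2 on the isograft axis, while macrophage markers have medians of -0.63 log2 in allografts and 0.83 log2 in isografts.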

How the data were processed

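RNA of CD31-selected cells had been labelled with biotin after 1 amplification cycle and hybridized to Affymetrix arrays, per the labels' protocols. The submitters' processing notes name RMA and the affy package for the deposited probe set values, which are on the log2 scale; versions are not given in the sources used here. All 28 data columns belong to samples, with 0 left over, and the values were used as they stood. The 4 leukocyte arrays (medians of 6.83 to 6.88 log2) had been normalized apart from the 24 endothelial ones (6.51 to 6.59 log2) and entered no test.

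Of 31099 probe sets, 20826 matched a single gene in GEO's platform annotation, 436 matched several, 57 were controls and 9780 are not named here. Symbols came from RefSeq (GRCr8) for 20758 probe sets. The probe set with the highest mean was kept for each of 14217 genes, with no filter. limma 3.58.1 in R 4.3.3 (lmFit, eBayes, constant prior) took all 24 endothelial arrays, giving each group its own mean (16 residual degrees of freedom, prior degrees of freedom 4.06). Benjamini-Hochberg adjustment covered all genes. The script was tested on simulated data. Array signals have no counting depth, and the number of arrays limits the precision.

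Named were called genes, or, as there were none, the 10 with the smallest p in each direction, the 3 in each direction of the difference test, and, per list, the 3 largest differences. Other genes were named after their values were seen, as were the neighbouring genes and the motifs. The 36 lists (801 members, 706 measured), like the comparison, were chosen with earlier results of these data known, and no p is given for a list. Same-numbered day 3 and day 2 allograft arrays had correlated deviations (r = 0.109, 0.196 and 0.191 across genes). Day 3 replicate 2 and day 2 replicate 1 also reached r = 0.123, so pairs are possible there but not shown. In isografts r was 0.280, 0.073 and -0.042 for the same numbers. The block gave each number 1 effect across all 24 endothelial arrays, isografts included, so it is not a test of allograft pairs alone. Alternatives were the block, a trended prior, a filter on dim genes, averaged probe sets, median centring, a leukocyte covariate, only the arrays compared, left-out replicates and, added after the data were seen, all probe sets.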

Additional observations from a re-analysis of the deposited data

How the results depend on the processing

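The number of arrays limits these results: at 3 per group 0 genes passed in the limma fit reported, so directions of single genes and lists rest on values and not on calls. In the allograft step, calls numbered 1 with the replicate block, 1 with the filter on dim genes and 1 with median centring, always Art3 (adjusted p = 0.0496, 0.0491 and 0.0162). With single arrays left out they ranged from 0 to 2, and the 2 were Klrb1a and Prxl2a without allograft day 3 replicate 1. In the isograft step they ranged from 0 to 1 with single arrays left out, and in the difference of both steps they were 0 under every alternative run, the replicate block included, which changed no other call. With all 31042 probe sets limma called 0, with 1294 probe sets at an unadjusted p under 0.05 in the allograft step. The only 6 arrays compared gave 434 genes at an unadjusted p under 0.05 in place of 676, and leaving out allograft day 2 replicate 2 gave 1022. With single arrays left out, signs turned for 9 named genes. Without allograft day 2 replicate 3 they turned for Col1a1 (0.38 log2, range -1.95 to 0.38), Dcn (0.12, range -1.66 to 0.12), Gpx3 (0.11, range -1.34 to 0.11), Treml1 (-0.024, range -0.024 to 0.24) and Ndufs4 (0.0016, range -0.27 to 0.0016). Without allograft day 3 replicate 1 they turned for Alas2 (-0.28, range -0.28 to 1.40) and Ahsp (-0.31, range -0.31 to 0.50), and Ahsp also without allograft day 2 replicate 1 (-0.15). Gp5 turned without allograft day 2 replicate 2 (0.071, range -0.26 to 0.071), and Ifng without allograft day 3 replicate 2 (-0.0080, range -0.0080 to 0.63). The cause was not tested. The covariate of 16 pan-leukocyte genes left 25 of 35 type I interferon-induced, 11 of 15 interferon-gamma-induced and 10 lower of 22 macrophage genes in the unadjusted range. Over all 14217 genes it left 636 there.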

Other observations

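The 12 mural cell markers, of pericytes and smooth muscle around vessels, had a median difference of 0.09 log2 in the allograft step, with 7 members above 0 and 5 below, and 0 higher and 1 lower at an unadjusted p under 0.05. In the test of allograft against isograft step, 3 were above and 0 below. Leaving out allograft day 2 replicate 3 gave 4 higher and 0 lower in the allograft step. The 3 members described here were chosen after their values were seen. Abcc9 and Kcnj8, the subunits of the pericyte potassium channel, and Rgs5, which damps G protein signals there, differed by 0.92, 0.83 and 0.86 log2 in the allograft step, with an unadjusted p above 0.05. Rgs5 stood at 10.60, 11.30 and 10.12 log2 on day 3, against 9.84, 9.77 and 9.84 log2 on day 2, without overlap. In isografts the same genes differed by -0.59, -0.38 and -0.45 log2. The steps of Abcc9 and Rgs5 differed by 1.52 log2 (interval 0.13 to 2.90) and 1.31 log2 (0.07 to 2.54). Acta2, the actin of contractile smooth muscle, differed by -0.56 log2 in allografts. Without allograft day 2 replicate 3, Abcc9, Kcnj8 and Rgs5 differed by 1.36, 1.24 and 0.87 log2.

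In the leukocyte arrays of the series (day 2, both of day 3, day 4), Spp1 had 14.30, 13.79, 12.61 and 12.61 log2 and Gzma 8.92, 9.63, 10.78 and 9.79 log2. Their titles do not tie them to the grafts that gave the endothelial arrays. Ido1 had 6.55, 7.09, 8.56 and 9.17 log2 and Art3 6.26, 7.77, 8.73 and 7.11 log2 there. Days 2 and 4 hold 1 leukocyte array each, so these values have no test.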
